A study of Mus musculus with 6 samples.

Results

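The HoxB cluster holds 10 homeobox genes, Hoxb1 to Hoxb9 and Hoxb13, and they were described here by their levels in mouse embryos with and without Tmem216. They were taken by gene name, 10 of the 56359 rows of the deposited table, and 8 of them passed the filter for testing (3 or more of the 6 samples at no less than 1 TPM, a unit scaled for gene length and library size). RNA was sequenced from C57BL/6 embryos at embryonic day 12, from 3 Tmem216-/- samples and 3 wild type (Tmem216+/+) samples. Tmem216 encodes a membrane protein of the transition zone at the base of the cilium. How the Tmem216-/- allele was made, which part of the embryo was taken and whether a sample is 1 embryo or a pool are not given in the sources used here. The p values therefore set the difference between groups against the scatter of these samples alone, and part of that scatter may be technical.

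Hox genes encode transcription factors that give cells their position along the head to tail axis. Within a cluster they are switched on in order, from the 3' end (Hoxb1) to the 5' end (Hoxb13), and the later genes are active in more caudal tissue. Retinoic acid acts on the 3' genes and Cdx factors on the middle ones, Pbx and Meis proteins bind DNA together with Hox proteins, and Polycomb and Trithorax complexes hold the genes silent or active. In the embryo the HoxB genes are known for the segments of the hindbrain, the spinal cord, the somites and the mesenchyme of the trunk, and they are silent in the forebrain and midbrain.

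Tmem216 was at 2.25, 0.51 and 1.39 TPM in the Tmem216-/- samples, against 31.0, 30.7 and 17.4 TPM in the wild type samples (replicates 1, 2 and 3; log2 fold change -3.55, limma adjusted p = 0.0266), as the labels say. Of 16411 tested genes, 17 (0.104%) passed limma at an adjusted p under 0.05, of which 16 were higher and 1, Tmem216 itself, was lower. Pairs of samples had Pearson correlations of 0.934 to 0.975 over tested genes. Marker genes of some tissues differed between the groups. All 12 listed heart muscle genes were higher in each Tmem216-/- sample, with a summed level of 852 to 2240 TPM, against 40.6 to 60.9 TPM in wild type, and 10 of them passed. Forebrain and midbrain genes, which mark tissue without HoxB expression, summed to 148 to 173 TPM in Tmem216-/- and 187 to 219 TPM in wild type, with 7 of 11 tested genes lower. This list was split, with log2 fold changes from -1.93 to 0.55 and 8 of 11 at an unadjusted p under 0.05 in limma (4.46% of all tested genes). The groups did not overlap in 6 lower and 2 higher genes of the list, against 4.83% and 4.75% of all tested genes. Among regions where HoxB genes are active, the spinal cord list summed to 74.1 to 79.9 TPM in Tmem216-/- and 69.2 to 114 TPM in wild type, with 6 of 11 tested genes lower. The hindbrain list, of which Hoxb1 and Hoxa2 are members, summed to 38.3 to 49.1 TPM and 31.9 to 69.6 TPM in the same order, with 4 of 7 lower, and the tail bud list to 36.9 to 42.6 TPM and 35.8 to 46.8 TPM, with 3 of 6 lower. Liver genes summed to 129.96 to 1125 TPM in Tmem216-/- and 225 to 2677 TPM in wild type, with 11 of 11 lower. Kidney genes summed to 174 to 209 TPM and 171 to 238 TPM in the same order, with 6 of 10 lower. The kidney list was also split, with log2 fold changes from -0.90 to 0.59 and 1 of 10 at an unadjusted p under 0.05 in limma. Groups did not overlap in 3 lower and 2 higher kidney genes, against the same 4.83% and 4.75% of all tested genes. Blood genes summed to 24980 to 54042 TPM in Tmem216-/- and 34815 to 42457 TPM in wild type, with 6 of 10 lower. Of these lists, Msgn1 of the tail bud was the single marker listed at 0 in all 6 samples. The part of these tissue differences in the HoxB values was not tested. In bulk samples, fewer HoxB expressing cells and less RNA per cell cannot be told apart.

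The mean level of 9 of the 10 HoxB genes was lower in Tmem216-/- than in wild type, and that of Hoxb9 was higher. No member passed the test. In limma 0 of the 8 tested members had an adjusted p under 0.05, with 2 at an unadjusted p under 0.05 (Hoxb5 and Hoxb6), against 0.104% (0.00609% lower) and 4.46% (2.22% lower) of all tested genes. The count of 2 was 1 without Tmem216-/- replicate 3, without wild type replicate 1 or without wild type replicate 3, 3 without wild type replicate 2, and 4 with a covariate for sex. With no filter it was 3 of 10 members, where 1207 of 30598 genes had such a p. Without Tmem216-/- replicate 1 it stayed at 2, but the genes were Hoxb6 and Hoxb8. Across the 8 tested members, 7 with negative and 1 with positive values, the log2 fold changes had a median of -0.37, while over all tested genes the median was -0.01 and 51.7% were lower. In 4 of the 10 members (Hoxb1, Hoxb2, Hoxb6 and Hoxb13) every Tmem216-/- value lay below every wild type value. Of the 8 tested members these were 2, and of all tested genes 4.83% had groups that did not overlap in this direction; 0 members and 4.75% of genes did so in the other. A log2 fold change of -0.5 or lower was found in 3 of the 8 members (Hoxb5, Hoxb6 and Hoxb8) and in 4.26% of all tested genes.

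**Figure D1:**
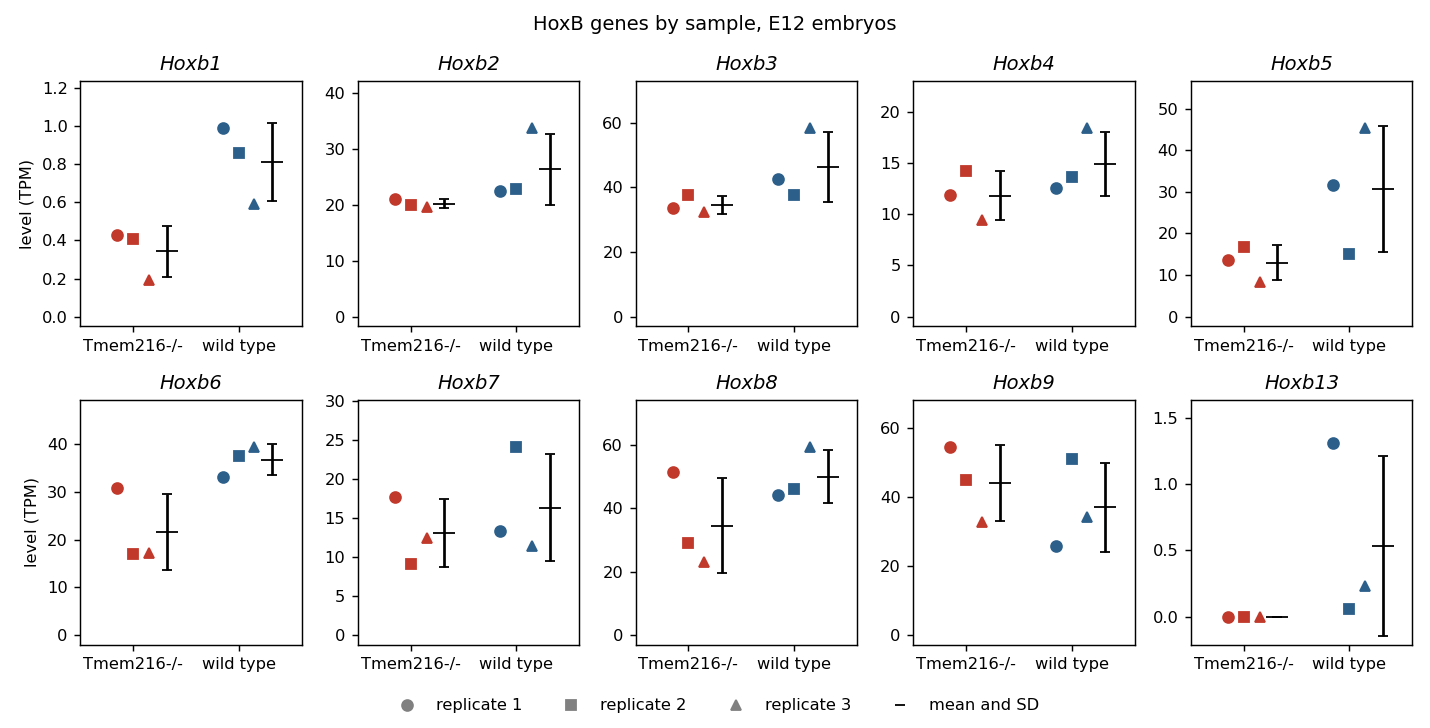
Level in TPM of each HoxB gene in the 3 Tmem216-/- samples (red, left) and the 3 wild type samples (blue, right) at embryonic day 12; symbols mark the replicate number, and the bar and whiskers are the mean and SD (n = 3). The groups do not overlap in Hoxb1, Hoxb2, Hoxb6 and Hoxb13, and the Tmem216-/- mean is the higher in Hoxb9 alone among the 10 panels.

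The cluster lies on chromosome 11 of mm10, from 96194316 to 96368256 (174 kb), with all 10 coding genes on the plus strand. The gene starts of Hoxb1 and Hoxb9 are 94.3 kb apart, and those of Hoxb9 and Hoxb13 are 77.1 kb apart. TPM values are already per length. The deposited length of each member equals that of 1 annotated transcript. For Hoxb8 it is 1141 bases, where the longest annotated transcript has 2635 bases, and the deposited length is also below the longest for Hoxb2 (1628 against 3134 bases), Hoxb3 (1890 against 3190), Hoxb5 (1895 against 2786) and Hoxb6 (1321 against 1964). Whether TPM were computed with that length is not given in the sources used here. The places of these 5 genes in the order of levels may therefore depend on it.

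In Tmem216-/- the order of mean levels was Hoxb9 (44.0 ± 10.99 TPM), Hoxb8 (34.6 ± 14.9), Hoxb3 (34.5 ± 2.81), Hoxb6 (21.7 ± 7.98), Hoxb2 (20.2 ± 0.77), Hoxb7 (13.1 ± 4.35), Hoxb5 (12.9 ± 4.204), Hoxb4 (11.8 ± 2.40), Hoxb1 (0.34 ± 0.13) and Hoxb13, listed at 0 (means ± SD, n = 3). The ranges of neighbours in that order overlapped except at the steps from Hoxb3 to Hoxb6, from Hoxb2 to Hoxb7, from Hoxb4 to Hoxb1 and from Hoxb1 to Hoxb13. In wild type the order was Hoxb8 (49.97 ± 8.29 TPM), Hoxb3 (46.1 ± 10.8), Hoxb9 (37.0 ± 12.9), Hoxb6 (36.8 ± 3.23), Hoxb5 (30.7 ± 15.1), Hoxb2 (26.4 ± 6.36), Hoxb7 (16.3 ± 6.87), Hoxb4 (14.9 ± 3.12), Hoxb1 (0.81 ± 0.20) and Hoxb13 (0.53 ± 0.68). There the ranges of all neighbours overlapped except at the step from Hoxb4 to Hoxb1. Hoxb9 stood at the top of the order in Tmem216-/- and at rank 3 in wild type, and Hoxb5 stood at rank 7 and rank 5 in the same order of groups.

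Hoxb1, which sets the identity of a single segment of the hindbrain and of its facial motor neurons, was the lowest of the 3' genes. It was at 0.43, 0.41 and 0.19 TPM in Tmem216-/-, against 0.99, 0.86 and 0.59 TPM in wild type. The groups did not overlap. The exact permutation test (two-sided) gave p = 0.1, and 3 against 3 samples cannot give less. No sample reached 1 TPM, so Hoxb1 was not among the tested genes, and in the fit without a filter its log2 fold change was -0.43 (limma adjusted p = 0.925). Hoxb1 keeps its own expression going through an element in front of its promoter where Hox and Pbx proteins bind together, and the 250 bases before its start are shown for that reason (GRCm38.p6, chr11:96365508-96365757, plus strand, from RefSeq), with a match to the Hox-Pbx letters TGATNNAT in capitals.
Hoxb1 promoter: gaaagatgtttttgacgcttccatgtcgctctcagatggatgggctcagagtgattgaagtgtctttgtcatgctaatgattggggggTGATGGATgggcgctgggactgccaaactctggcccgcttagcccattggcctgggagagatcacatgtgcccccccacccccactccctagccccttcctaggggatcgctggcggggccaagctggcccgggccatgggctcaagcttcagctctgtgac
Both strands were searched, and 7.68% of the 32851 promoters of this length in the RefSeq table hold such a match. Promoter sequences were found for 3 of the 10 members. Hoxb4 had no match in its window, and Hoxb8 had 1.

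Hoxb2, a hindbrain and neural crest gene, was at 21.04, 19.98 and 19.5 TPM in Tmem216-/-, against 22.5, 22.9 and 33.7 TPM in wild type. The Tmem216-/- values lay close together (coefficient of variation 3.82%), and wild type replicate 3 lay above the other wild type samples. The log2 fold change was -0.34 (SE 0.17, limma adjusted p = 0.983), and -0.16 without wild type replicate 3. The exact permutation p was 0.1.

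Hoxb3, active in the hindbrain and pharyngeal arches, was at 33.6, 37.7 and 32.3 TPM in Tmem216-/-, against 42.6, 37.5 and 58.3 TPM in wild type. Tmem216-/- replicate 2 lay level with wild type replicate 2, and wild type replicate 3 was again the highest. The log2 fold change was -0.39 (SE 0.17, adjusted p = 0.983) with all samples and -0.21 without wild type replicate 3. Hoxb4, a gene of the caudal hindbrain that also acts in blood stem cells, was at 11.9, 14.2 and 9.40 TPM in Tmem216-/-, against 12.5, 13.7 and 18.4 TPM in wild type (log2 fold change -0.31, SE 0.20, adjusted p = 0.983). The groups overlapped through Tmem216-/- replicate 2, and the value was -0.15 with wild type replicate 3 left out and -0.17 with Tmem216-/- replicate 3 left out.

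Hoxb5, known in the embryo for the lung, the shoulder region and enteric nerve precursors, had the lowest log2 fold change of the cluster. It was at 13.7, 16.7 and 8.40 TPM in Tmem216-/-, against 31.6, 15.1 and 45.3 TPM in wild type, a ratio of means of 0.42. Wild type replicate 2 lay among the Tmem216-/- values, so the groups overlapped, while the other wild type samples lay far above. The log2 fold change was -1.11 (SE 0.42, adjusted p = 0.983), -1.53 without wild type replicate 2 and -0.77 without wild type replicate 3.

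Hoxb6, active in the trunk and lateral mesoderm, was at 30.9, 17.0 and 17.2 TPM in Tmem216-/-, against 33.2, 37.6 and 39.5 TPM in wild type, a ratio of means of 0.59. The wild type samples lay close together (coefficient of variation 8.77%), and Tmem216-/- replicate 1 came within 3 TPM of the lowest of them. The log2 fold change was -0.79 (SE 0.23), with an adjusted p of 0.853, the lowest among the tested members in limma. The exact permutation p was 0.1. Without Tmem216-/- replicate 1 the log2 fold change was -1.06 and the adjusted p 0.109, the lowest for any member under any setting tried.

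Hoxb7, a trunk gene also active in the ureteric bud, was at 17.8, 9.14 and 12.4 TPM in Tmem216-/-, against 13.4, 24.2 and 11.4 TPM in wild type. The groups overlapped (log2 fold change -0.27, SE 0.33, adjusted p = 0.983), and without wild type replicate 2 the direction turned (0.03). Hoxb8, known for sensory circuits of the dorsal spinal cord and for blood progenitors, was at 51.5, 29.1 and 23.1 TPM in Tmem216-/-, against 44.2, 46.2 and 59.5 TPM in wild type. Tmem216-/- replicate 1 lay within the wild type range and the other Tmem216-/- samples lay below it. The log2 fold change of Hoxb8 was -0.59 (SE 0.29, adjusted p = 0.983). It was -0.91 without Tmem216-/- replicate 1 and -0.35 without Tmem216-/- replicate 3.

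Hoxb8 carries a target site of miR-196a, a microRNA that is itself made from the cluster, between Hoxb9 and Hoxb13. MicroRNAs bind messenger RNAs by their seed (bases 2 to 8), and miR-196a is known for cutting the Hoxb8 messenger through pairing along nearly its whole length. The cluster holds a further microRNA, miR-10a, between Hoxb4 and Hoxb5. Both mature sequences are from RefSeq (GRCm38.p6, plus strand, chr11:96317186-96317208 for miR-10a-5p and chr11:96265187-96265208 for miR-196a-5p), with the seed in capitals; the 2 seeds differ.
mmu-miR-10a-5p: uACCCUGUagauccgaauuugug
mmu-miR-196a-5p: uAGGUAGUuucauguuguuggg
Hoxb8 site of miR-196a: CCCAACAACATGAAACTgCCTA
The Hoxb8 site spans bases 2208 to 2229 of the Hoxb8 transcript of 2635 bases in GENCODE M21 (chr11:96284888-96284909, plus strand), and capitals mark bases complementary to the microRNA. It pairs at 21 of 22 bases, where the best ungapped match in the transcripts of the other 9 members pairs at 13 or 14. For miR-10a, the best match was in Hoxb5, at 15 of 23 bases. Mir10a and Mir196a-1 were listed at 0 in all 6 samples; mature microRNAs were not measured here.

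The 250 bases before the start of Hoxb8 (GRCm38.p6, chr11:96281655-96281904, plus strand, from RefSeq) are shown since Cdx and caudal Hox proteins are known to bind at AT rich sites, and Hoxb8 is the neighbour of Hoxb9, the member with the opposite sign.
Hoxb8 promoter: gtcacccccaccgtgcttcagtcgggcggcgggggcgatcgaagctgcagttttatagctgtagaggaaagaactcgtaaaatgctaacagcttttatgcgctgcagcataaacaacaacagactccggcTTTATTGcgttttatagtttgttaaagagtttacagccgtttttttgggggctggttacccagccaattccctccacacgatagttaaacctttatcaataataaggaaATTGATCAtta
Capitals mark a match to TTTATTG, letters bound by Cdx and caudal Hox proteins, from -120 to -114, and a match to TGATNNAT from -11 to -4 on the other strand. The matches do not overlap, and TTTATTG on either strand is found in 4.204% of the 32851 promoters.

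Hoxb9, which patterns the thoracic ribs and acts in limb motor neurons, was the single tested member with a positive log2 fold change. It was at 54.6, 44.9 and 32.6 TPM in Tmem216-/-, against 25.8, 51.1 and 34.2 TPM in wild type. The groups overlapped (log2 fold change 0.27, SE 0.28, adjusted p = 0.983), and leaving out wild type replicate 1 gave 0.04, where leaving out wild type replicate 2 gave 0.52. Hoxb13, the most caudal gene, active in the tail bud and hindgut, was listed at 0 in all 3 Tmem216-/- samples, against 1.31, 0.06 and 0.23 TPM in wild type. A value of 0 in such a table can also be a failed estimate, and no fold is given. Hoxb13 reached 1 TPM in 1 sample and was not tested, and in the fit without a filter its log2 fold change was -0.53 (limma adjusted p = 0.925).

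**Figure D2:**
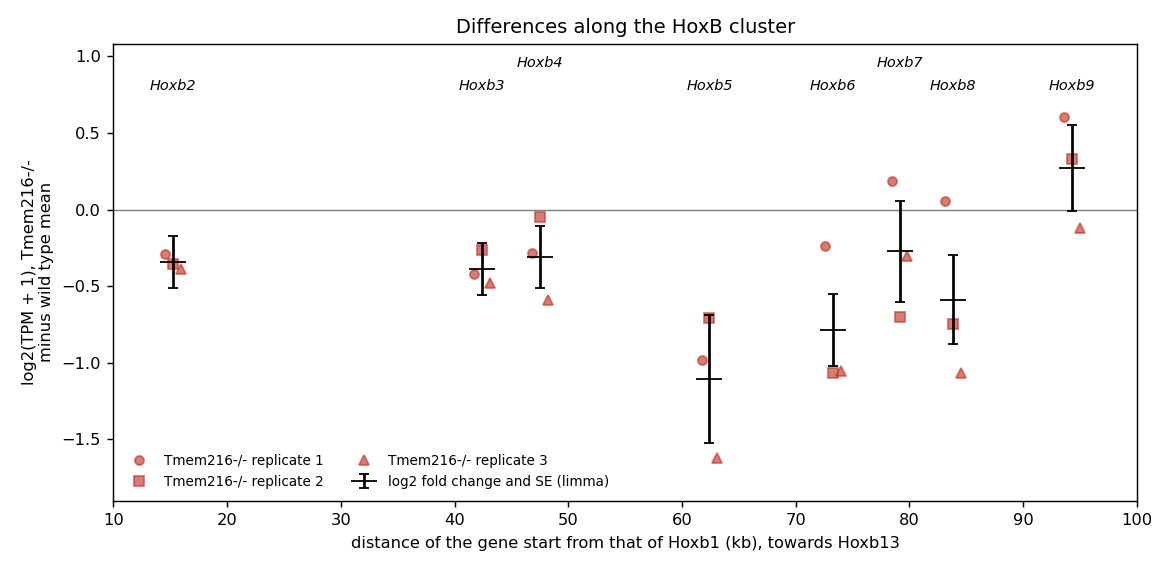
Difference of each Tmem216-/- replicate from the wild type mean on the log2(TPM + 1) scale (red symbols) and limma log2 fold change with its SE (black) for the 8 tested HoxB genes, by distance of the gene start from that of Hoxb1 in kb. Hoxb5, at 62.4 kb, has the lowest value (-1.11), and Hoxb9, at 94.3 kb, the single positive one (0.27).

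Along the cluster the log2 fold changes did not run in 1 direction. The 3' genes Hoxb2, Hoxb3 and Hoxb4 lay between -0.39 and -0.31, the middle genes Hoxb5 to Hoxb8 between -1.11 and -0.27, and Hoxb9 at 0.27. The coefficient of variation among the Tmem216-/- samples was 3.82 to 20.3% for Hoxb2, Hoxb3 and Hoxb4, 24.96 to 43.2% for Hoxb5 to Hoxb9 and 38.8% for the low Hoxb1. In replicate 1, Hoxb7, Hoxb8 and Hoxb9 were 0.19, 0.05 and 0.60 above the wild type mean on the log2(TPM + 1) scale. In replicate 2 the same genes were at -0.70, -0.75 and 0.33, and in replicate 3 at -0.30, -1.07 and -0.12. For Hoxb2 the same differences were -0.29, -0.36 and -0.39 in replicates 1, 2 and 3. Replicate 3 held the lowest Tmem216-/- value for 7 of the 9 members above 0, and wild type replicate 3 the highest value of all samples for 6 of the 10.

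The levels of Hoxb2, Hoxb3, Hoxb4 and Hoxb5 went together over the 6 samples. The Pearson correlations of log2(TPM + 1) in these 6 pairs of genes ran from 0.82 to 0.94, and that of Hoxb6 with Hoxb8 was 0.94. Hoxb9 ran apart from Hoxb2 to Hoxb5, with values from -0.43 to 0.07. These are descriptions over 6 samples that share the genotype difference and the part of the embryo taken. The tested genes outside the Hox clusters whose pattern was most like the mean of the 8 tested members, among 11047 genes with a mean of at least 5 TPM, were Taok3, a stress kinase (r = 0.995, n = 6), Commd4 (0.99), Xxylt1, a xylosyltransferase (0.99), Lpcat1, a lipid acyltransferase (0.99), and Srrt, an RNA processing factor (0.98). They were picked as the highest of 11047 correlations over 6 samples, so values this high can come from the picking alone. A link to the HoxB genes was not tested.

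The summed HoxB level was 235, 189 and 155 TPM in Tmem216-/-, against 228, 249.1 and 301 TPM in wild type (193 ± 40.3 and 259 ± 37.6 TPM, SD, n = 3 each), and the ranges overlapped. As a share of all Hox transcripts it was 37.8 ± 7.98% in Tmem216-/- and 37.9 ± 7.08% in wild type. Within the cluster, Hoxb9 made up 23.2, 23.7 and 21.04% of the summed level in Tmem216-/-, against 11.3, 20.5 and 11.4% in wild type. The Tmem216-/- shares lay close together and above each wild type share. Hoxb6 made up 13.1, 8.98 and 11.1% in Tmem216-/-, against 14.6, 15.1 and 13.1% in wild type, and the ranges overlapped at 13.1%. The Hoxb9 to Hoxb6 ratio was 1.77, 2.64 and 1.90 in Tmem216-/-, against 0.78, 1.36 and 0.86 in wild type, without overlap. The ratios of Hoxb9 to the other middle genes examined overlapped between the groups. Hoxb9 to Hoxb5 was 3.99, 2.69 and 3.89 in Tmem216-/-, against 0.81, 3.39 and 0.75 in wild type. Hoxb9 to Hoxb8 was 1.06, 1.54 and 1.41 in Tmem216-/-, against 0.58, 1.11 and 0.57 in wild type. These shares and the 3 ratios were singled out after the values were seen, and no test was made of them.

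**Figure D3:**
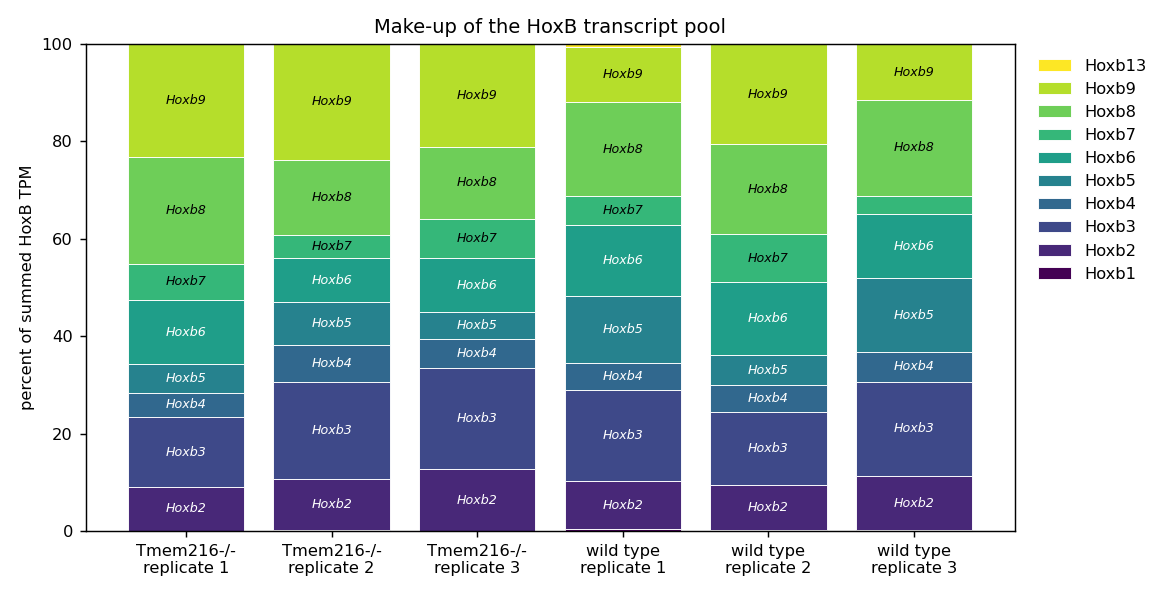
Share of each HoxB gene in the summed HoxB TPM (percent, stacked from Hoxb1 at the bottom to Hoxb13 at the top) in the 3 Tmem216-/- samples (left) and the 3 wild type samples (right). The Hoxb9 share is 21.04 to 23.7% in Tmem216-/- and 11.3 to 20.5% in wild type.

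The antisense transcripts of the cluster did not pass the test. Hoxb5os, transcribed against Hoxb5 and Hoxb6, was at 15.7, 20.2 and 11.8 TPM in Tmem216-/-, against 13.1, 13.6 and 17.2 TPM in wild type (log2 fold change 0.09, adjusted p = 0.983). Hoxb3os, transcribed against Hoxb3 and Hoxb2, was at 5.61, 8.77 and 4.57 TPM in Tmem216-/-, against 5.63, 6.02 and 11.3 TPM in wild type (-0.22, adjusted p = 0.983). Both sets of values overlapped between the groups. Exons of Hoxb3os share 2250 bases with Hoxb3 and 953 with Hoxb2, and those of Hoxb5os share 100 with Hoxb5. Whether reads were counted by strand is not given in the sources used here, so reads in those bases cannot be assigned to 1 gene of a pair. Gm53, a long noncoding RNA gene between Hoxb9 and Hoxb13 that was named after its values were seen, was at 2.51, 0.41 and 1.38 TPM in Tmem216-/-, against 5.29, 8.57 and 1.99 TPM in wild type (-1.31, adjusted p = 0.983).

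The 8 tested flanking genes had log2 fold changes from -0.15 (Snx11, a sorting nexin) to 0.10 (Igf2bp1, an RNA binding protein), with a median of -0.06, and 0 passed, with 0 at an unadjusted p under 0.05 in limma. Ube2z, a ubiquitin conjugating enzyme gene, was at 45.0 ± 1.603 TPM in Tmem216-/- and 48.6 ± 5.30 TPM in wild type (-0.10), and Snf8, a subunit of the endosomal sorting machinery, at 75.7 ± 6.64 and 83.0 ± 12.2 TPM in the same order (-0.13). Ttll6, a tubulin glutamylase gene, was at most 0.14 TPM in any sample; it and Igf2bp1 were named after their values were seen.

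Paralogs are Hox genes of the same number in different clusters, and the signs in groups 5 to 8 were not the same in all clusters. In these groups all 4 HoxB genes were lower (median log2 fold change -0.69), as was Hoxd8 (-0.14). All 3 HoxC genes were higher (0.72) and 2 of the 3 HoxA genes were lower (-0.05). Hoxc5, Hoxc6 and Hoxc8 were at 0.28, 0.72 and 1.09 (SE 0.33, 0.51 and 0.92), and the groups overlapped in each. In each, wild type replicate 1 was the lowest of the 6 samples (8.43, 10.6 and 2.19 TPM). In groups 1 to 4 the 3 tested HoxB genes had a median of -0.34, beside -0.20 for 4 HoxA and -0.63 for 3 HoxD genes. In groups 9 to 13 Hoxb9 was higher while all 13 tested HoxA, HoxC and HoxD genes were lower. Hoxa9, Hoxc9 and Hoxd9, its paralogs, were at -0.36, -0.36 and -0.97. Hoxc10, Hoxc11 and Hoxc12, the lowest of all Hox genes, were at -3.91, -2.88 and -2.69 (adjusted p = 0.119, 0.0792 and 0.0920 in limma). Over whole clusters the medians were -0.37 for HoxB, -0.36 for 11 HoxA, -0.25 for 8 HoxC and -0.76 for 9 HoxD genes, and 0 genes of any cluster passed over all genes, with 11 of 36 tested Hox genes at an unadjusted p under 0.05, against 4.46% of all tested genes. Differences between clusters were not tested.

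**Figure D4:**
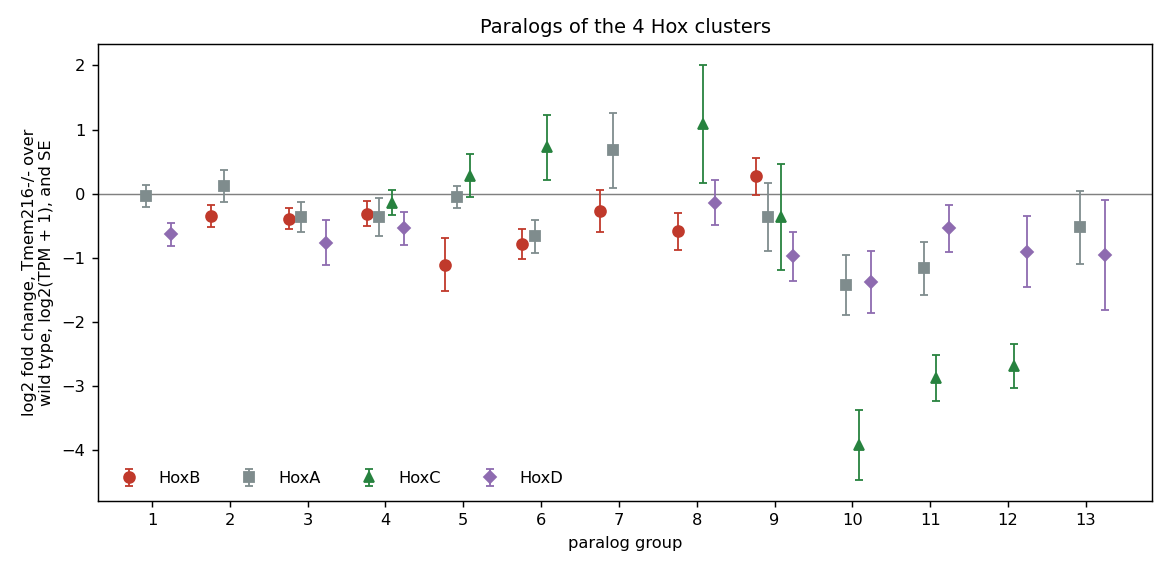
Log2 fold change of Tmem216-/- over wild type on the log2(TPM + 1) scale, with its SE, for tested Hox genes by paralog group, with HoxB in red circles, HoxA in grey squares, HoxC in green triangles and HoxD in purple diamonds. The HoxB genes of groups 2 to 8 lie below 0 and Hoxb9 above it, while the HoxC genes lie above 0 in groups 5, 6 and 8 and reach -3.91 in group 10.

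Cofactors and regulators of the HoxB genes did not pass the test. The 9 tested cofactors had a median log2 fold change of -0.04 (5 lower, 4 higher), and 0 passed, with 0 at an unadjusted p under 0.05 in limma. Meis2, a partner of Hox proteins, was at 108 ± 5.75 TPM in Tmem216-/- and 118 ± 1.26 TPM in wild type (-0.12), and its groups did not overlap. Of the 9 cofactors, 1 lower and 1 higher were apart in this way, against 4.83% and 4.75% of all tested genes. Pknox2, a Meis relative, was at -0.14.

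Among genes of retinoic acid, which induces the 3' HoxB genes, 10 of 14 tested were lower. The log2 fold changes ran from -0.82 to 0.51, with a median of -0.12. Of these genes 0 passed, with 1 at an unadjusted p under 0.05 in limma, against 4.46% of all tested genes. Aldh1a1, a retinaldehyde dehydrogenase, was at 1.39 ± 0.25 TPM in Tmem216-/- and 3.28 ± 0.97 TPM in wild type (-0.82, adjusted p = 0.746). Rdh10, which makes retinaldehyde, was at 8.69 ± 0.48 TPM in Tmem216-/- and 10.9 ± 0.72 TPM in wild type (-0.29). The groups did not overlap in either gene, and 0 genes of the list were apart in the other direction. Over all tested genes 4.83% had groups that did not overlap with Tmem216-/- lower, and 4.75% with it higher.

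Of 12 upstream factors, 7 were tested, 5 of them lower and 2 higher, with a median of -0.19 and 0 at an unadjusted or adjusted p under 0.05 in limma. Cdx1, Cdx2, Cdx4 and Egr2 were among those that did not pass the filter. Gbx2, a hindbrain boundary gene, was at 15.9 ± 1.51 TPM in Tmem216-/- and 22.6 ± 10.4 TPM in wild type (-0.39), Rarg, a retinoic acid receptor, was at -0.21, and T (brachyury), a tail bud factor, at -0.31. Chromatin regulators of Hox genes were balanced, with 11 of 21 lower, a median of 0.00 after rounding and 0 at an unadjusted or adjusted p under 0.05. Kdm6a and Kdm6b, demethylases that remove the Polycomb mark, were at 0.43 and -0.22, and Rnf2, a Polycomb ubiquitin ligase, was at 0.20. Of 7 homeobox genes with expression limits next to those of Hox genes, 4 were lower and 3 higher, and the median was -0.04. Among them 0 passed, with 1 at an unadjusted p under 0.05 in limma, against 4.46% of all tested genes. Otx2, a forebrain and midbrain factor, was at 48.5 ± 6.82 TPM in Tmem216-/- and 33.2 ± 8.04 TPM in wild type (0.55, limma adjusted p = 0.983). Mnx1, a motor neuron factor, was at -0.59 and Gbx1 at -0.79.

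The size of each HoxB difference depended on single samples, as the plot of values with 1 sample left out shows. Hoxb2, Hoxb3, Hoxb4, Hoxb5, Hoxb6 and Hoxb8 were lower and Hoxb9 higher whichever sample was left out, and no member passed in any of these fits.

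**Figure D5:**
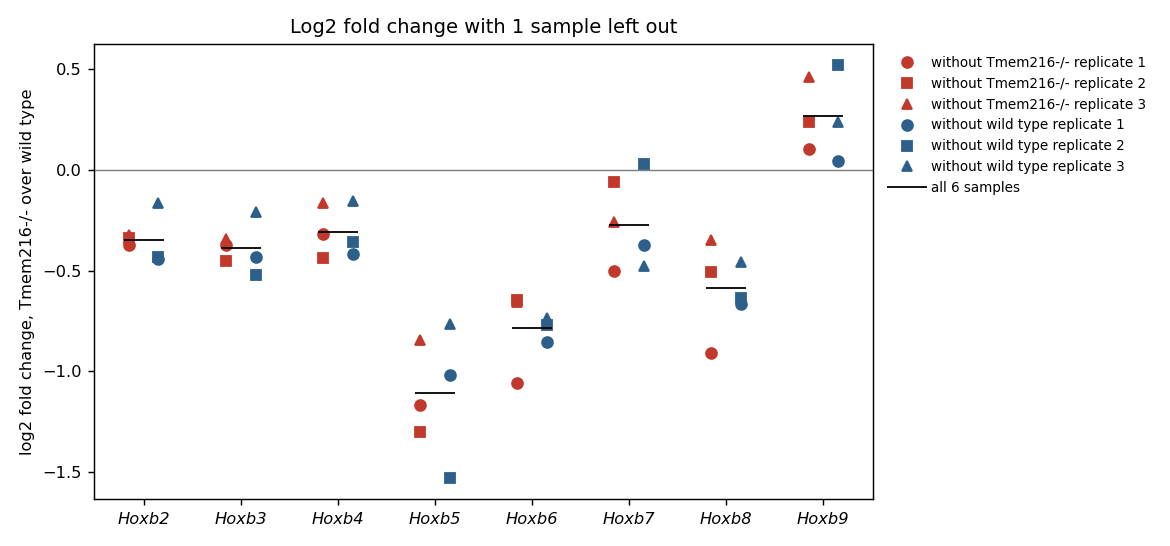
Log2 fold change of Tmem216-/- over wild type for the 8 tested HoxB genes with 1 Tmem216-/- sample left out (red), 1 wild type sample left out (blue) or all 6 samples (black line). Hoxb5 runs from -1.53 to -0.77, Hoxb9 from 0.04 to 0.52, and Hoxb7 crosses 0 without wild type replicate 2.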

How the data were processed

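Total RNA of 3 Tmem216-/- and 3 wild type samples was sequenced. Per the submitters' processing notes, CASAVA 1.8, HISAT2, StringTie and RSEM were used with mm10. The deposited values are TPM per gene, made by the authors; they keep no depth, so no count model, interval or detection floor was computed. The table holds 55536 genes and 823 assembled loci; 27 names turned into dates were restored from the identifier, and 2 further numeric columns were not used. The length of each row in bases, as deposited by the authors, was compared with GENCODE M21 transcripts.

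The 16411 genes with 3 or more samples at no less than 1 TPM were tested on log2(TPM + 1), so fold changes of low genes are understated, by limma 3.58.1 (R 4.3.3; eBayes with a trend, two-sided, Benjamini-Hochberg over all tested genes, threshold 0.05). SE is limma's moderated standard error, and SD that of the samples. Exact two-sided permutation tests enumerated every assignment of the samples to the groups. In simulated data of 16411 genes, the test found 70% of 50 genes with a 2-fold change, 88% of 50 with a 4-fold change, 100% of 50 with an 8-fold change and 94% of 50 with a 16-fold change. Over all sizes 8 of its 184 calls were false. The changed genes were drawn from those with higher levels, and the noise was independent between genes. The real data gave 17 calls, and a larger number of changed genes eases the adjusted threshold. These shares are therefore not the power of the test for the HoxB members.

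The members and the 19 gene lists were chosen with earlier results of these data known. Genes named are the members, transcripts of the locus, up to 3 genes of a list with the smallest p, Hox paralogs, Tmem216 and the 5 genes most like the mean z score of the tested members; some genes under this rule are not reported here. Figures used matplotlib 3.10.9; other versions were Python 3.11.15, pandas 2.3.3 and scipy 1.17.1.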

Additional observations from a re-analysis of the deposited data

How the results depend on the processing

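The alternatives tried were median-of-ratios scaling, a pseudocount of 0.1 or 5, testing without a filter or at 5 TPM, removal of haemoglobin and mitochondrial genes, eBayes without a trend, replicate number as a block, a covariate for sex from Y-linked genes, and each sample left out. Of 120 pairs of a tested HoxB member and an alternative, 119 kept the direction and stayed on the same side of the threshold; the exception was Hoxb7 without wild type replicate 2, at 0.032 (range with each sample left out, -0.50 to 0.032), and the cause was not tested. The number of members that passed was 0 under all 15 alternatives, and the median log2 fold change of the members ran from -0.48 to -0.33 with each sample left out and from -0.44 to -0.33 otherwise. The number of members lower was 6 or 7 of 8 with each sample left out, and 9 of 10 with no filter. The number of genes changed over the whole table moved from 17 to 0 with no filter, where 30598 genes were tested and 1207 had an unadjusted p under 0.05, and ran from 0 to 27 with each sample left out. It was 27 without Tmem216-/- replicate 1, 9 without Tmem216-/- replicate 2, 7 without Tmem216-/- replicate 3, 0 without wild type replicate 1 (518 by unadjusted p), 2 without wild type replicate 2 and 1 without wild type replicate 3. Same-numbered samples showed no strong shared deviation (correlations 0.0161, -0.0934 and 0.101), so the samples were not treated as pairs. With 3 samples in each group this check cannot exclude a weak pairing. With the replicate block 25 genes changed, and 0 HoxB members passed. TPM keep no depth, so the counting error behind Hoxb1 and Hoxb13 is unknown.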
